A study of Homo sapiens with 6 samples.

Results

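Collagen genes encode the alpha chains that wind around each other into the triple-helical proteins of the extracellular matrix. The genes described here were chosen by name and not by their values: every protein-coding gene whose symbol reads COL, a number, A and a number. The count table held 69292 Ensembl gene IDs, 62625 of which matched a gene symbol, and 44 of these were collagen genes. Of the 44, 28 had at least 10 reads in at least 2 of the 6 libraries and are described, and 27 of the 28 passed the low-count filter of the test. The other 16 were under that level, and 1 of them, COL6A5, had no read in any library. COL2A1 (second highest count 10) and COL19A1 (12) lay just inside the limit, and COL28A1 (9), COL15A1 (8) and COL14A1 (7) just outside it.

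Each collagen gene makes 1 kind of alpha chain, and chains of matching types join as trimers in the endoplasmic reticulum after prolines and lysines have been hydroxylated. Fibril-forming collagens such as type I give tissue its tensile strength, type IV forms the sheet-like network of basement membranes, type VI forms beaded filaments around cells, and fibril-associated, short-chain and membrane-spanning types sit on or between these. In breast tumours, fibrillar collagen is laid down mainly by fibroblasts of the stroma, while carcinoma cells make basement membrane chains and meet collagen through integrins and discoidin domain receptors.

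All 6 libraries came from the human cell line MDA-MB-231, a triple-negative breast carcinoma that the labels class as mesenchymal stem-like, and were prepared with a stranded kit for messenger RNA. The parental group (2 libraries) had no drug by the protocol, while a label field gives DMSO, the usual drug solvent, as its treatment. The everolimus-resistant group (DREVE, 2 libraries) was a derivative held in 20 µM everolimus, and the ridaforolimus-resistant group (DRRIDA, 2 libraries) a derivative held in 30 µM ridaforolimus, each for months. Both drugs are rapamycin analogs, which inhibit the growth kinase mTOR, and the series set out to profile acquired resistance to them. All groups shared the same growth medium with serum. Each resistance was represented by 1 derivative, so that resistance, the drug present at harvest and drift in long culture cannot be told apart. Whether the derivatives were clones or pools, and whether the libraries of a group came from separate cultures, is not given in the sources used here. The p-values therefore measure only the spread between these libraries, which may be technical. Both comparisons with parental cells used the same 2 parental libraries.

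Libraries held 13134567 to 15556246 counts, and 32356 to 33463 genes had a count in each. Replicates differed from each other by more than sampling noise in all 3 groups. Of the markers of a mesenchymal MDA-MB-231 tumour cell, 6 of 6 had a mean of at least 1 CPM (counts per 1000000 reads after TMM scaling), with a summed level of 2233 to 4048 CPM over the libraries. Of 8 fibroblast markers 2 reached 1 CPM, the summed level was 9.94 to 35.4 CPM, and LUM and DPT had no read. Endothelial markers summed to 10.6 to 28.2 CPM and leukocyte markers to 1.22 to 2.83 CPM, with CD3E at 0. TIE1, an endothelial marker, rose in the ridaforolimus-resistant line from 0.764 and 0.704 CPM in the parental libraries to 9.68 and 16.7 CPM, with a log2 fold change of 4.15 ± 0.46 (SE; 95% interval 3.09 to 5.21; edgeR adjusted p = 0.0145). This call missed the threshold without parental replicate 1 (adjusted p = 0.178), 2 (0.214) or ridaforolimus-resistant replicate 2 (0.0614). In the everolimus-resistant libraries TIE1 had 3.62 and 6.21 CPM, above both parental ones, at 2.73 ± 0.46 (SE; 95% interval 1.67 to 3.79; edgeR adjusted p = 0.205). DESeq2 called that difference (adjusted p = 0.000346), as 1 of 147 genes that it called there, where edgeR called 1. Of the 4 endothelial markers tested, 3 were above 0 and 1 below in the ridaforolimus-resistant line against parental cells (median log2 fold change 0.71). Only TIE1 was called. The 1 below was PECAM1, named with its value in view, at -1.72 ± 0.86 (SE; 95% interval -3.69 to 0.25; edgeR adjusted p = 0.403). Luminal epithelial markers summed to 400 to 627 CPM, nearly all from KRT8 and KRT18 with CDH1 at most 0.229 CPM, and chondrocyte markers to 93.1 to 163 CPM, mostly SOX9. The part of these levels in the collagen values was not tested.

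No collagen gene passed the test in any of the 3 comparisons. With edgeR's quasi-likelihood test and an adjusted p under 0.05 over all 21223 genes tested, 0 of 27 collagen genes were called in everolimus-resistant against parental cells, where 0.00471% of all genes were called. In ridaforolimus-resistant against parental cells the count was 0 of 27 beside 0.32% of all genes, and between the resistant lines it was 0 of 27 beside 0.744%. In bulk RNA, fewer cells that express a gene and less RNA per cell cannot be told apart, here as in all values that follow.

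At an unadjusted p under 0.05, 1 of 27 collagen genes differed between everolimus-resistant and parental cells (8.79% of all genes), namely COL4A1, which was lower. Between ridaforolimus-resistant and parental cells 5 of 27 did so (14.5% of all genes): COL27A1 and COL17A1 were higher, and COL8A1, COL11A2 and COL12A1 lower. Between the resistant lines 4 of 27 did so (14.1% of all genes), with COL4A1 and COL4A2 higher in the ridaforolimus-resistant line and COL8A1 and COL12A1 lower. DESeq2 called 0, 1 and 0 collagen genes in the same order of comparisons, the 1 being COL12A1. Of all 21223 genes DESeq2 called 147, 575 and 658, where edgeR called 1, 68 and 158.

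Groups whose 2 libraries did not overlap with the 2 of the other group were about as common among collagens as elsewhere. This held for 12 of 27 collagens against parental cells in the everolimus-resistant line (44.4%, beside 41.1% of all genes), for 15 of 27 in the ridaforolimus-resistant line (55.6%, beside 49.4%) and for 12 of 27 between the resistant lines (44.4%, beside 41.2%). The median log2 fold change of the 27 was -0.16 in everolimus-resistant against parental cells, 0.12 in ridaforolimus-resistant against parental cells and 0.22 between the resistant lines, ridaforolimus over everolimus. The medians of all genes tested were 0.02, 0.01 and -0.02.

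These data bound the collagen differences only loosely. Estimates lay within 1 log2 unit in either direction for 27, 25 and 25 of the 27 genes, but the 95% intervals reached beyond 1 log2 unit for 20, 22 and 22 of them. A 2-fold difference was therefore inside the interval of most collagen genes.

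**Figure D1:**
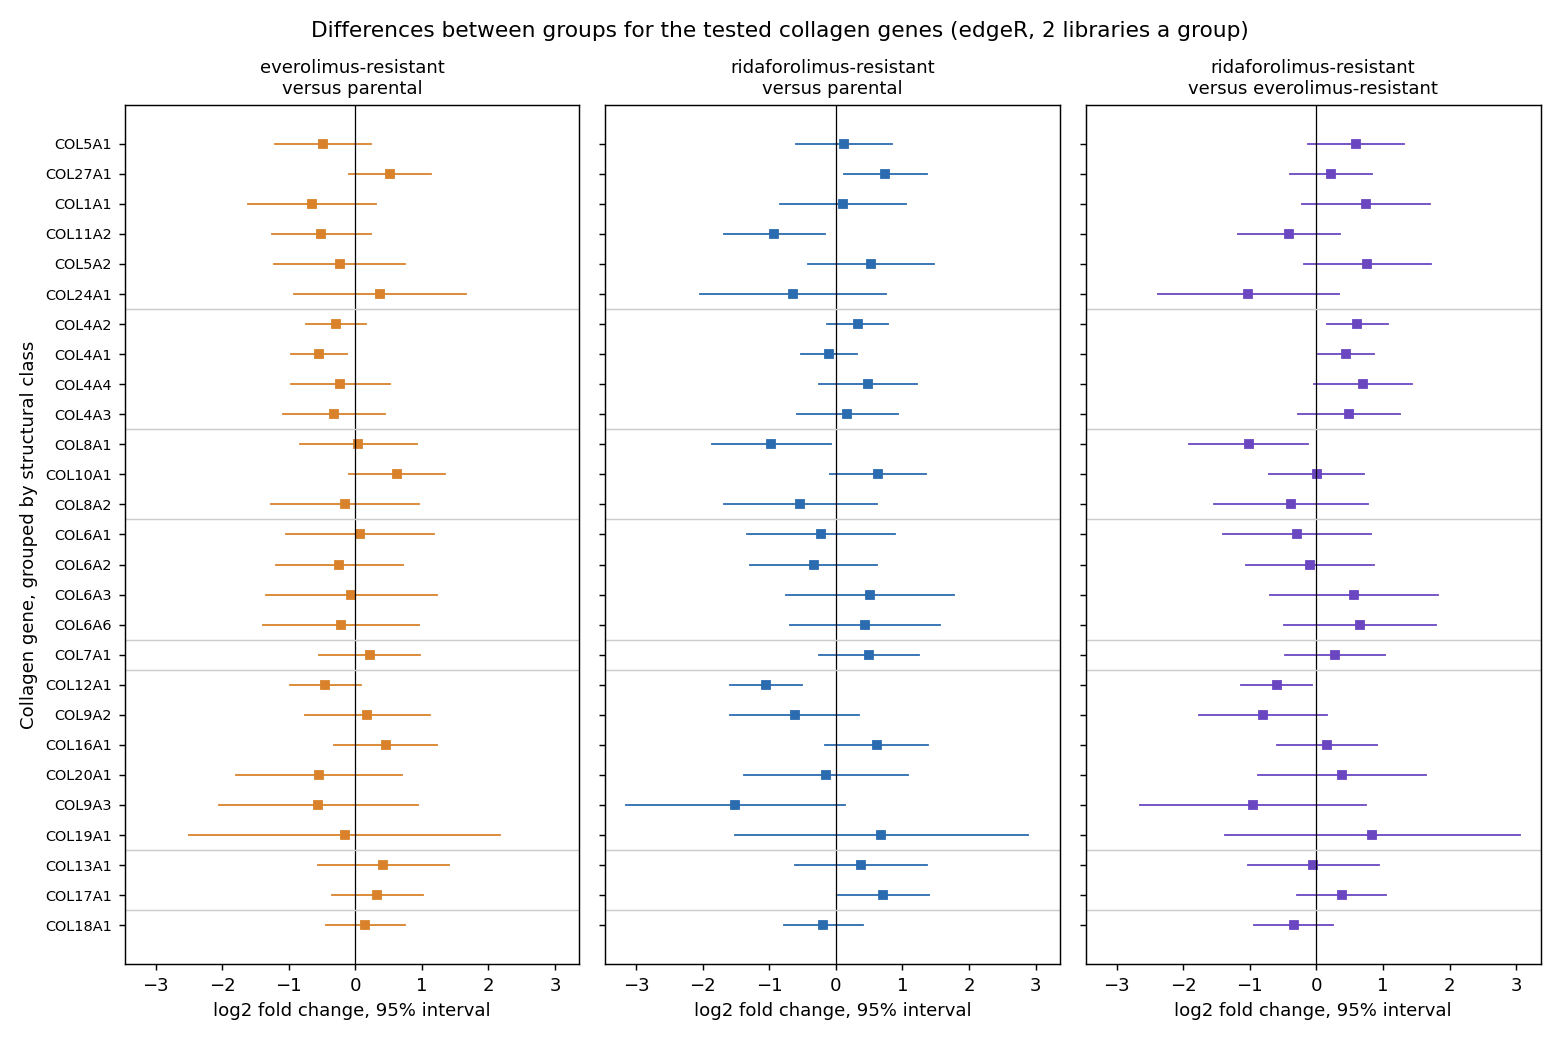
Log2 fold change (squares, horizontal axis) of each of the 27 tested collagen genes, grouped by class, in the 3 comparisons, 1 panel each, with lines for the 95% interval from edgeR's quasi-likelihood fit. Most intervals cross 0, and no gene passed after adjustment over all genes.

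Collagen messages made up 0.132% to 0.174% of all counts. Their summed level was 1610.0 and 1360 CPM in the parental libraries, 1379 and 1353 CPM in the everolimus-resistant and 1396 and 1707 CPM in the ridaforolimus-resistant ones. The ranges overlapped between every pair of groups except the ridaforolimus- and everolimus-resistant lines, which were separated by a small gap. A few genes held most of this: COL4A2 (30.7% of collagen CPM), COL4A1 (12.4%), COL13A1 (12.3%) and COL6A1 (10.6%) together gave 66.1%, and the top 10 genes gave 94.6%.

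Per length of the gene's merged exons, COL13A1 (30.7 RPKM, CPM per kilobase of exon), COL6A1 (29.2) and COL4A2 (23.4) led the order of mean levels. COL6A2 (13.8), COL4A1 (12.3), COL18A1 (11.97) and COL5A1 (7.07) came next, followed by COL12A1 (5.79), COL27A1 (3.92) and COL8A1 (3.90). Neighbours in this order lay close beside the spread between libraries: over the 6 libraries COL13A1 ranged from 99.0 to 300.5 CPM and COL6A1 from 76.4 to 228 CPM. With the longest annotated transcript as the length, COL4A2 (69.5 RPKM) came ahead of COL13A1 (56.7) and COL6A1 (36.9). Of the chains of the commonest fibril, type I, COL1A1 stood at 0.963 RPKM, rank 14 of the 28 by either length, and COL1A2 had 3 reads in all.

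**Figure D2:**
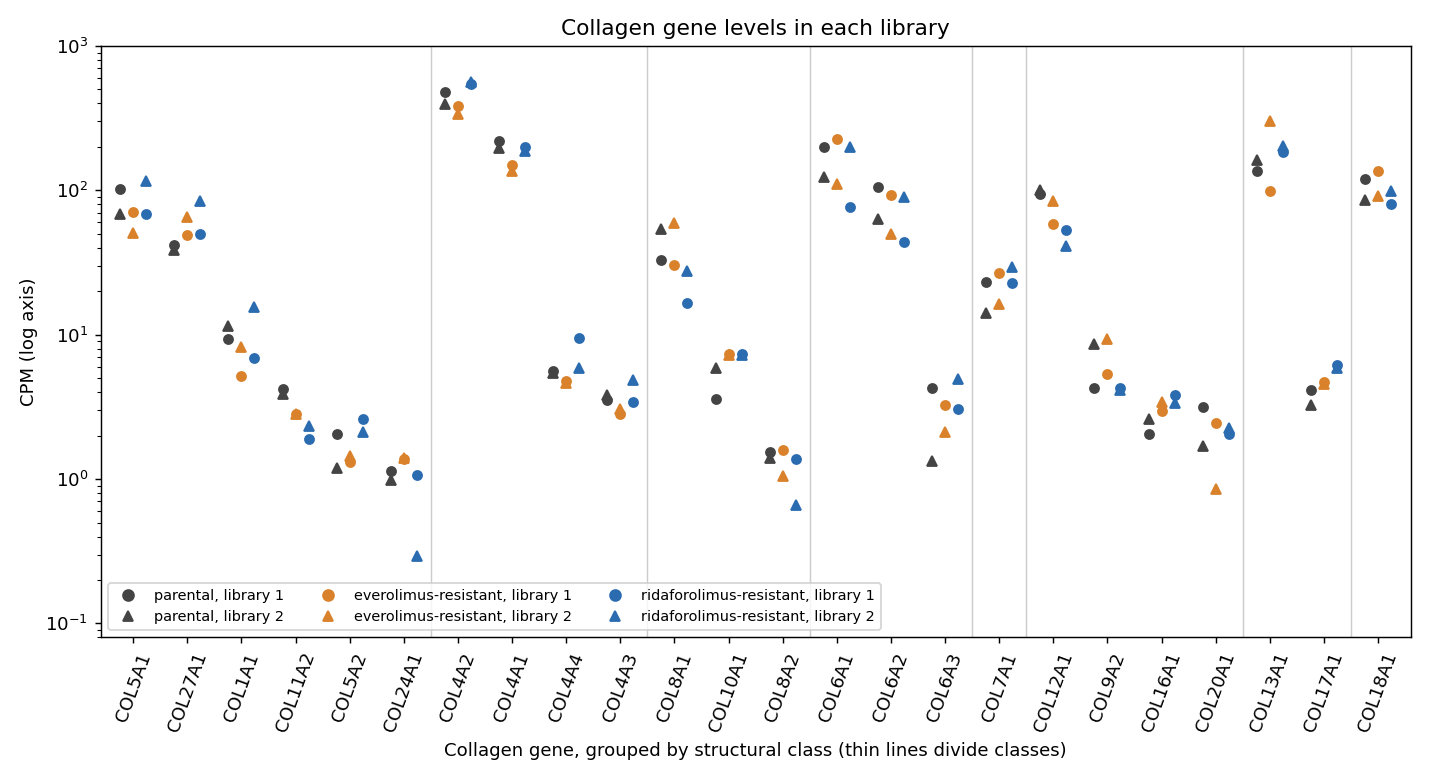
CPM on a log axis of the 24 collagen genes with a mean of at least 1 CPM, grouped by class, with a point for each of the 6 libraries (colour for the group, shape for library 1 or 2). COL4A2 is the highest, and the libraries of 1 group are often as far apart as those of different groups.

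The basement membrane class, type IV, was the largest, with 4 of its 6 genes tested. Type IV chains assemble in set trimers, of which the combination of alpha1 and alpha2 is found in nearly every basement membrane and the alpha3, alpha4 and alpha5 combination in kidney, lung and a few other sites. COL4A1 (ENSG00000187498, chr13:110148963-110307233, GRCh38) and COL4A2 (ENSG00000134871, chr13:110305812-110513209, GRCh38) are divergent neighbours on chromosome 13. Their RefSeq start sites lie 127 bases apart on opposite strands, and the DNA between them is known as a promoter shared by both genes. It is shown because they were the 2 collagens with the highest CPM. The window runs from 250 bases before to 50 after the COL4A2 start (chr13:110307034-110307333, plus strand, GRCh38.p14), and the capitals mark the 128 bases from the COL4A1 start to the COL4A2 start. These starts are those of RefSeq. GENCODE starts COL4A2 further upstream, so that the whole window lies inside the gene as drawn there.
COL4A2 promoter: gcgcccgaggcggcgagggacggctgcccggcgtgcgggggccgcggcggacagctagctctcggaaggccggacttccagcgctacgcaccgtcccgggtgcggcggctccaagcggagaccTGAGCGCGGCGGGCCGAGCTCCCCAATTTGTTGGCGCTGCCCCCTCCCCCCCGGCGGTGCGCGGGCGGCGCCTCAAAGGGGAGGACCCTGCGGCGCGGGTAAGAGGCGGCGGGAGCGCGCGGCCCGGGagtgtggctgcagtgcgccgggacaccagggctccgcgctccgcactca
The window holds 1 CCAAT and 1 GGGCGG (both strands searched) and no TATAAA. Among 27305 promoter windows of this length in the RefSeq table, 35.7% held CCAAT, 44.6% GGGCGG and 11.95% TATAAA. Of the 28 described collagens, 21 had a window, and 3, 13 and 5 of the 21 held these letters. COL1A1, COL20A1, COL2A1, COL5A2, COL6A1, COL8A1 and COL9A3 had no entry.

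All 4 tested type IV genes were lowest in the everolimus-resistant line. Counted by non-overlap, 4 of 4 were lower there than in parental cells (20.5% of all genes were) and 4 of 4 were higher in the ridaforolimus- than in the everolimus-resistant line (20.9% of all genes), yet none passed the test after adjustment. The class and directions of this count were singled out after the values were seen. The 4 genes form 2 head-to-head pairs, so that they need not be independent of each other. COL4A1 had 220.0 and 196 CPM in the parental, 150.2 and 135 in the everolimus-resistant and 200.4 and 187 in the ridaforolimus-resistant libraries. The everolimus-resistant libraries were the lowest and overlapped with neither group, and the other 2 groups overlapped. Its log2 fold change was -0.54 ± 0.18 (SE; 95% interval -0.97 to -0.12; edgeR adjusted p = 0.507) in everolimus-resistant against parental cells, -0.11 (95% interval -0.53 to 0.31) in ridaforolimus-resistant against parental cells and 0.44 ± 0.18 (SE; 95% interval 0.02 to 0.86; edgeR adjusted p = 0.338) between the resistant lines.

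COL4A2 had 483 and 397 CPM in the parental, 385 and 337 in the everolimus-resistant and 542 and 564 in the ridaforolimus-resistant libraries. The 3 groups were ordered without overlap, the everolimus-resistant lowest and the ridaforolimus-resistant highest. The estimates were -0.29 (95% interval -0.74 to 0.17) in the everolimus-resistant and 0.33 (95% interval -0.13 to 0.78) in the ridaforolimus-resistant line against parental cells. Between the resistant lines it was 0.61 ± 0.20 (SE; 95% interval 0.16 to 1.07; edgeR adjusted p = 0.222), the lowest adjusted p of any collagen in that comparison.

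The kidney-type chains were present at a low level. COL4A3, also paired head to head with its neighbour (419 bases between the RefSeq starts), had 3.51 and 3.80 CPM in the parental, 2.83 and 3.04 in the everolimus-resistant and 3.43 and 4.82 in the ridaforolimus-resistant libraries. COL4A4 had 5.58 and 5.42 CPM in the parental, 4.78 and 4.63 in the everolimus-resistant and 9.53 and 5.84 in the ridaforolimus-resistant libraries. Both were lowest in the everolimus-resistant libraries without overlap, but the ridaforolimus-resistant values of COL4A4 were spread from 5.84 to 9.53 CPM. The estimates between the resistant lines were 0.49 (95% interval -0.27 to 1.25) and 0.71 (95% interval -0.03 to 1.44). Their partner COL4A5 and the related COL4A6, on the X chromosome, had 7 reads each in all 6 libraries together.

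**Figure D3:**
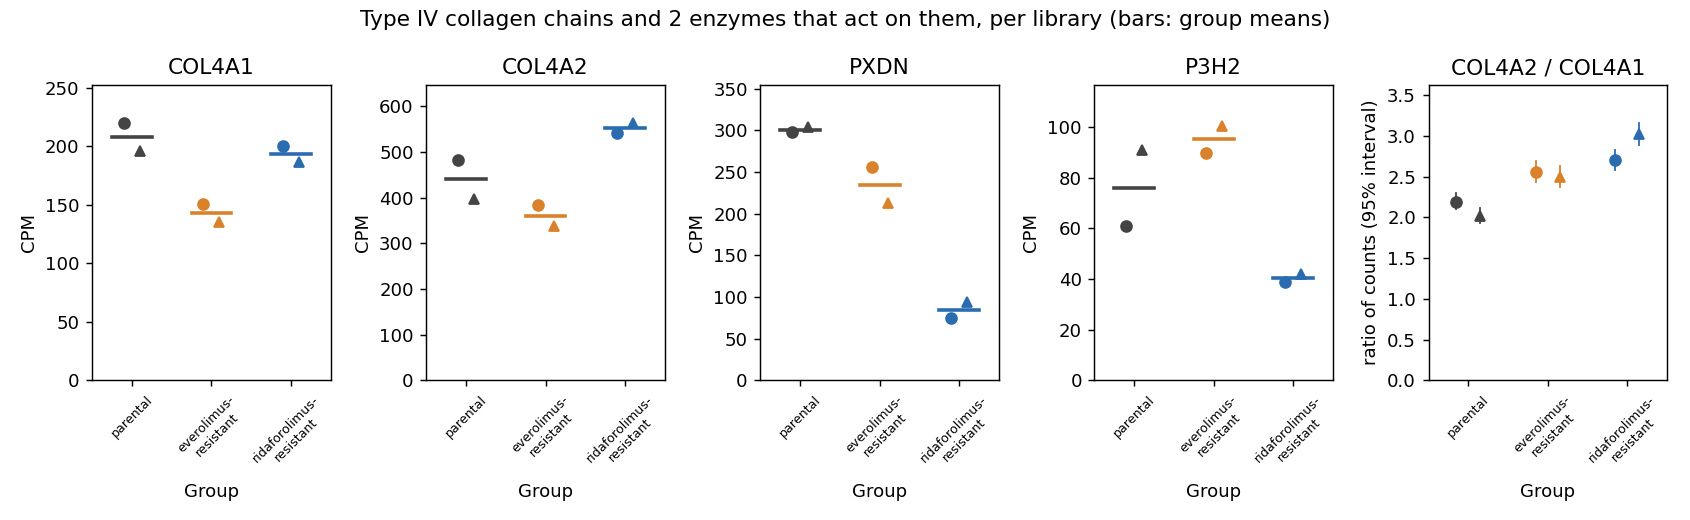
CPM of COL4A1, COL4A2, PXDN and P3H2 in each library (points) by group, with a bar at the group mean, and the ratio of COL4A2 to COL4A1 counts with 95% counting intervals, each on its own linear axis from 0. Both collagen genes are lowest in the everolimus-resistant libraries, PXDN and P3H2 are lowest in the ridaforolimus-resistant ones, and the ratio is lowest in the parental ones.

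As a class, type IV summed to 712 and 603 CPM in parental, 543 and 480.2 CPM in everolimus-resistant and 755 and 761 CPM in ridaforolimus-resistant libraries. The 3 groups did not overlap. Type IV took 44.2% and 44.3% of collagen CPM in the parental libraries, 39.4% and 35.5% in the everolimus-resistant and 54.1% and 44.6% in the ridaforolimus-resistant ones. Without a test of these sums, they stand as a description.

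The balance of the 2 main chains was also set side by side, a comparison singled out after its values were seen. Reads of COL4A2 per read of COL4A1 were 2.19 (95% counting interval 2.10 to 2.29) and 2.02 (1.93 to 2.12) in the parental libraries. They were 2.56 (2.43 to 2.695) and 2.49 (2.37 to 2.63) in the everolimus-resistant and 2.703 (2.58 to 2.83) and 3.02 (2.89 to 3.16) in the ridaforolimus-resistant ones. The groups did not overlap, and the ratio was lowest in parental cells. Their means ± SD (n = 2) were 2.11 ± 0.12, 2.53 ± 0.05 and 2.86 ± 0.23, or 1.61, 1.93 and 2.19 per length of merged exons. With the longest annotated transcript as the length, the ratio ranged from 2.06 to 3.08 over the 6 libraries, slightly above the ratio of reads. The ratio was not tested, and an exact permutation test of 2 libraries against 2 could not give a p under 0.333. GENCODE draws these genes as overlapping at their starts on opposite strands, and the strand setting of the counting is not given in the sources used here.

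Type VI, the beaded filament class, varied more within groups than between them. COL6A1 (ENSG00000142156, chr21:45981737-46005050, GRCh38) had 198 and 124 CPM in the parental, 228 and 110.5 in the everolimus-resistant and 76.4 and 200.03 in the ridaforolimus-resistant libraries. COL6A2, which lies near it on chromosome 21, had 105 and 63.3 CPM in the parental, 93.5 and 49.7 in the everolimus-resistant and 44.0 and 89.9 in the ridaforolimus-resistant libraries. For both genes the replicates stood far apart in every group, and all groups overlapped. The intervals of COL6A1 were wide: 0.07 ± 0.48 (SE; 95% interval -1.04 to 1.18; edgeR adjusted p = 0.980) in the everolimus-resistant and -0.22 ± 0.48 (SE; 95% interval -1.34 to 0.89; edgeR adjusted p = 0.872) in the ridaforolimus-resistant line against parental cells. COL6A2 gave -0.24 (95% interval -1.19 to 0.72) and -0.33 (95% interval -1.29 to 0.63).

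Reads of COL6A1 per read of COL6A2 were 1.88 (95% counting interval 1.76 to 2.01) and 1.96 (1.81 to 2.13) in the parental, 2.44 (2.29 to 2.60) and 2.22 (2.04 to 2.43) in the everolimus-resistant and 1.74 (1.57 to 1.93) and 2.22 (2.08 to 2.38) in the ridaforolimus-resistant libraries. The everolimus-resistant ratios lay above the parental ones without overlap, the ridaforolimus-resistant ones overlapped with both, and the ratio was not tested. The third chain of the usual trimer, COL6A3, was scarce, at 4.28 and 1.34 CPM in the parental, 3.26 and 2.12 in the everolimus-resistant and 3.05 and 4.89 in the ridaforolimus-resistant libraries. Per length of merged exons, COL6A2 stood 52.6- to 172-fold above COL6A3 over the 6 libraries. COL6A6, an alternative to it, stayed at 0.529 to 1.10 CPM.

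**Figure D4:**
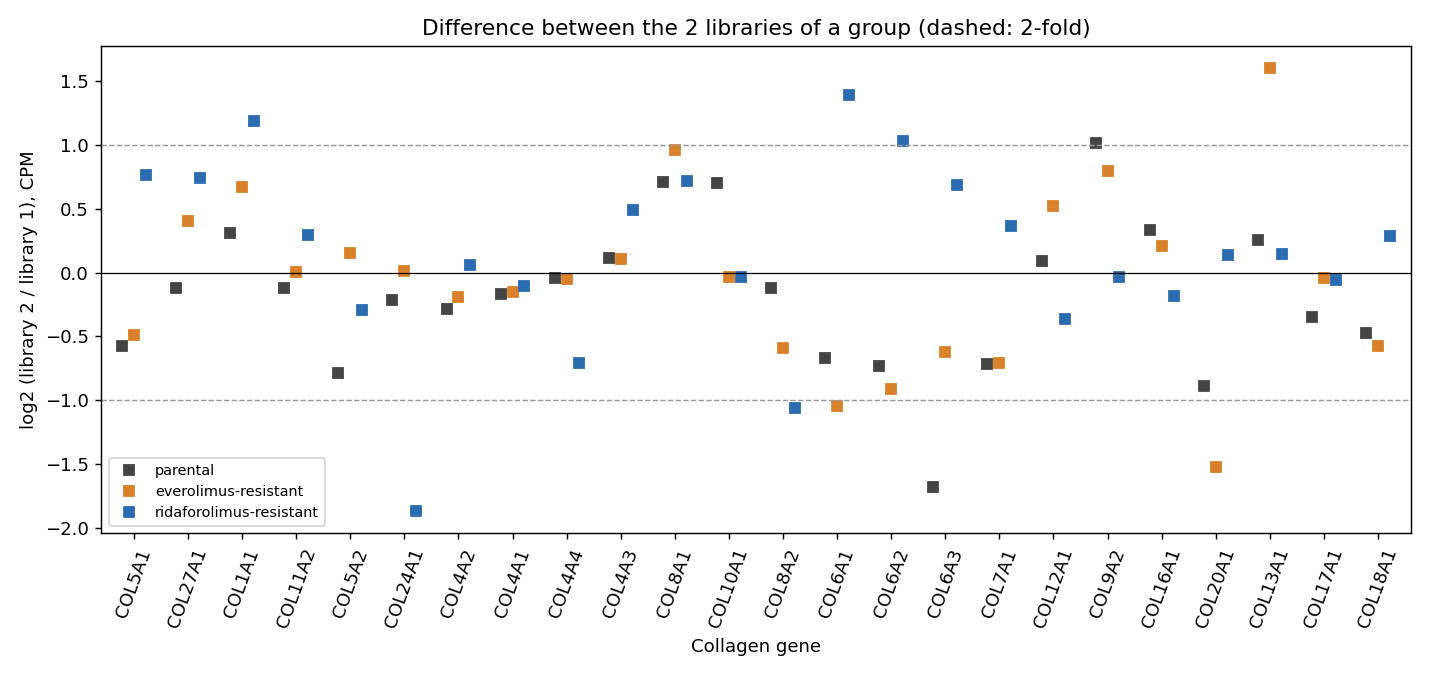
Log2 ratio of library 2 to library 1 within each group (squares, coloured by group) for the 24 collagen genes with a mean of at least 1 CPM, with dashed lines at a 2-fold difference. COL6A1 lies beyond the lines in both resistant groups, on opposite sides.

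The spread between replicates bears on every collagen value. Over the 24 collagen genes with a mean of at least 1 CPM, the median absolute log2 ratio of the replicates was 0.34 in the parental, 0.51 in the everolimus-resistant and 0.36 in the ridaforolimus-resistant group. Over all 18222 genes at that level it was 0.22, 0.36 and 0.33. Replicates differed by over 2-fold for 2 collagens in the parental group (COL6A3 and COL9A2), 3 in the everolimus-resistant group (COL6A1, COL13A1 and COL20A1) and 5 in the ridaforolimus-resistant group (COL1A1, COL6A1, COL6A2, COL8A2 and COL24A1). These are 8.33%, 12.5% and 20.8% of the 24, beside 4.54%, 12.1% and 9.73% of all genes at that level.

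The fibril-forming class, with 6 of its 11 genes tested, was carried by type V and XXVII chains and not by type I. COL5A1, whose chain starts and limits the width of type I fibrils, had 101 and 68.0 CPM in the parental, 70.9 and 50.4 in the everolimus-resistant and 68.2 and 116 in the ridaforolimus-resistant libraries. All groups overlapped, and the estimates were -0.48 (95% interval -1.20 to 0.24) and 0.12 (95% interval -0.60 to 0.84) in the everolimus- and ridaforolimus-resistant lines against parental cells. Its partner COL5A2 was at 1.20 to 2.59 CPM, and COL5A1 stood 17.5- to 37.9-fold above it per length of merged exons.

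COL27A1, a chain of fibrils best known from cartilage, had 41.6 and 38.3 CPM in the parental, 49.4 and 65.3 in the everolimus-resistant and 50.2 and 83.8 in the ridaforolimus-resistant libraries. Every resistant library was above both parental ones, and the 2 resistant groups overlapped. Its estimates were 0.52 ± 0.27 (SE; 95% interval -0.10 to 1.14; edgeR adjusted p = 0.628) in the everolimus-resistant and 0.74 ± 0.27 (SE; 95% interval 0.12 to 1.37; edgeR adjusted p = 0.278) in the ridaforolimus-resistant line.

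COL1A1, the main chain of the type I fibril, had 9.32 and 11.6 CPM in the parental, 5.14 and 8.20 in the everolimus-resistant and 6.86 and 15.6 in the ridaforolimus-resistant libraries. The everolimus-resistant libraries were below the parental ones, and the ridaforolimus-resistant libraries lay on both sides of the parental ones. The estimate in the everolimus-resistant line was -0.64 ± 0.42 (SE; 95% interval -1.60 to 0.32; edgeR adjusted p = 0.710). COL1A2 had 2 and 1 reads in the parental libraries and 0 in the 4 resistant ones, where 3 counts, the number that a count of 0 allows, correspond to 0.104 CPM over the everolimus-resistant and 0.112 CPM over the ridaforolimus-resistant group. COL3A1 had 7 reads in all.

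COL11A2, a chain of cartilage fibrils, had 4.20 and 3.87 CPM in the parental, 2.83 and 2.84 in the everolimus-resistant and 1.91 and 2.34 in the ridaforolimus-resistant libraries. The groups were ordered without overlap, with parental cells highest and the ridaforolimus-resistant line lowest. The estimate was -0.92 ± 0.33 (SE; 95% interval -1.68 to -0.17; edgeR adjusted p = 0.272) in the ridaforolimus-resistant line against parental cells and -0.51 (95% interval -1.25 to 0.23) in the everolimus-resistant line. COL24A1 ranged from 0.292 to 1.39 CPM, and COL2A1, which was not tested, had 34 reads in all.

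Among the fibril-associated genes, COL12A1 was the most abundant and came closest to a call. Type XII collagen lies along the surface of type I fibrils. Its promoter is shown as that of the collagen with the lowest adjusted p against parental cells: chr6:75206004-75206303, minus strand, GRCh38.p14, with the 2 matches of GGGCGG (both on the opposite strand, printed as CCGCCC) in capitals. Neither CCAAT nor TATAAA was found in these letters.
COL12A1 promoter: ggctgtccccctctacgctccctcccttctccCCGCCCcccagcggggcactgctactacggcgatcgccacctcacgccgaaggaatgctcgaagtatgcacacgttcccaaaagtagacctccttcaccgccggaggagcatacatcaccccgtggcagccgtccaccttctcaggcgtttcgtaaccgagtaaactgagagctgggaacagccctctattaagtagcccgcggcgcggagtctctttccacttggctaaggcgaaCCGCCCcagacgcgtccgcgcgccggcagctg
COL12A1 (ENSG00000111799, chr6:75084326-75206051, GRCh38) had 94.7 and 101 CPM in the parental, 58.9 and 84.4 in the everolimus-resistant and 53.3 and 41.4 in the ridaforolimus-resistant libraries. The ridaforolimus-resistant libraries were the lowest and the parental ones the highest, with no overlap between any groups. The group means ± SD (n = 2) were 97.9 ± 4.48, 71.7 ± 18.0 and 47.4 ± 8.38 CPM. The log2 fold change was -1.05 ± 0.23 (SE; 95% interval -1.58 to -0.51; edgeR adjusted p = 0.117) in the ridaforolimus-resistant line against parental cells, -0.45 ± 0.23 (SE; 95% interval -0.98 to 0.08; edgeR adjusted p = 0.623) in the everolimus-resistant line and -0.60 ± 0.23 (SE; 95% interval -1.13 to -0.06; edgeR adjusted p = 0.306) between the lines. The adjusted p of 0.117 became 0.0126 with DESeq2 and 0.00168 without a filter on low counts, both under the threshold. These settings called 575 and 1195 of all genes, beside 68 with the filtered edgeR test. With limma-voom it was 0.127, and with a replicate block in the edgeR fit 0.203. Over all settings, leaving out each library among them, the log2 fold change stayed between -1.25 and -0.87.

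COL9A2, a chain of the cartilage-type fibril coat, had 4.28 and 8.66 CPM in the parental, 5.36 and 9.32 in the everolimus-resistant and 4.27 and 4.16 in the ridaforolimus-resistant libraries. The ridaforolimus-resistant values were the lowest, narrowly. COL16A1 had 2.06 and 2.61 CPM in the parental, 2.97 and 3.44 in the everolimus-resistant and 3.81 and 3.36 in the ridaforolimus-resistant libraries. Here both resistant groups were above the parental one, with estimates of 0.45 (95% interval -0.32 to 1.23) and 0.62 (95% interval -0.16 to 1.39). COL20A1 was at 0.859 to 3.13 CPM with all groups overlapping. COL9A3 and COL19A1 ranged from 0.292 to 1.68 and from 0.132 to 1.53 CPM. The collagen estimate furthest from 0 was that of COL9A3 in the ridaforolimus-resistant line against parental cells. It was -1.51 (95% interval -3.15 to 0.14) and rested on 4 to 22 counts a library. COL9A3 and COL19A1 each overlap a gene on the opposite strand with up to 1043 and 477 counts, so that their reads cannot be assigned with certainty.

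The short-chain class forms hexagonal lattices. COL8A1, made in vessel walls and the cornea, had 32.9 and 53.7 CPM in the parental, 30.3 and 59.0 in the everolimus-resistant and 16.7 and 27.5 in the ridaforolimus-resistant libraries. Both ridaforolimus-resistant values were below all 4 others, and the parental and everolimus-resistant groups overlapped. Its estimates were -0.97 ± 0.39 (SE; 95% interval -1.86 to -0.08; edgeR adjusted p = 0.311) against parental cells and -1.01 ± 0.39 (SE; 95% interval -1.91 to -0.12; edgeR adjusted p = 0.302) against the everolimus-resistant line, while the everolimus-resistant line stood at 0.04 (95% interval -0.83 to 0.92) against parental cells. Both ridaforolimus estimates passed when no filter on low counts was used, a setting that called 1195 and 1362 of all genes, beside 68 and 158 with the filter.

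COL10A1, the collagen of hypertrophic cartilage, had 3.59 and 5.85 CPM in the parental, 7.39 and 7.21 in the everolimus-resistant and 7.39 and 7.23 in the ridaforolimus-resistant libraries. All 4 resistant values lay above the parental ones and close to each other. The estimates were 0.63 ± 0.31 (SE; 95% interval -0.09 to 1.35; edgeR adjusted p = 0.618) in the everolimus-resistant and 0.63 ± 0.31 (SE; 95% interval -0.09 to 1.35; edgeR adjusted p = 0.403) in the ridaforolimus-resistant line, and 0.00 (95% interval -0.70 to 0.71) between the lines. It overlaps a gene on the opposite strand with up to 391 counts. COL8A2 was at 0.658 to 1.59 CPM.

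Of the 4 transmembrane collagens 2 were tested. COL13A1, a membrane-spanning collagen of cell adhesion sites, had 136 and 162 CPM in the parental, 99.0 and 301 in the everolimus-resistant and 184 and 203 in the ridaforolimus-resistant libraries. The everolimus-resistant libraries were both the lowest and the highest of the 6, and the ridaforolimus-resistant ones lay above both parental ones. Its estimates were 0.42 ± 0.43 (SE; 95% interval -0.56 to 1.41; edgeR adjusted p = 0.823) in the everolimus-resistant line and 0.38 (95% interval -0.61 to 1.36) in the ridaforolimus-resistant line.

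COL17A1, the collagen of hemidesmosomes that anchor epithelial cells, had 4.13 and 3.24 CPM in the parental, 4.71 and 4.56 in the everolimus-resistant and 6.17 and 5.92 in the ridaforolimus-resistant libraries. The groups were ordered without overlap, parental lowest and ridaforolimus-resistant highest. The estimate was 0.72 ± 0.30 (SE; 95% interval 0.03 to 1.40; edgeR adjusted p = 0.324) in the ridaforolimus-resistant line against parental cells and 0.33 (95% interval -0.35 to 1.02) in the everolimus-resistant line.

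COL18A1, a basement membrane collagen whose end is released as endostatin, had 119 and 85.7 CPM in the parental, 136 and 91.6 in the everolimus-resistant and 81.0 and 98.8 in the ridaforolimus-resistant libraries. COL7A1, which forms the anchoring fibrils below the epidermis, had 23.1 and 14.1 CPM in the parental, 26.8 and 16.4 in the everolimus-resistant and 22.9 and 29.5 in the ridaforolimus-resistant libraries. All groups overlapped for both genes. The estimates of COL18A1 were 0.15 (95% interval -0.44 to 0.75) and -0.19 (95% interval -0.78 to 0.41), and those of COL7A1 0.21 (95% interval -0.54 to 0.97) and 0.50 (95% interval -0.26 to 1.25), in the everolimus- and ridaforolimus-resistant lines.

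**Figure D5:**
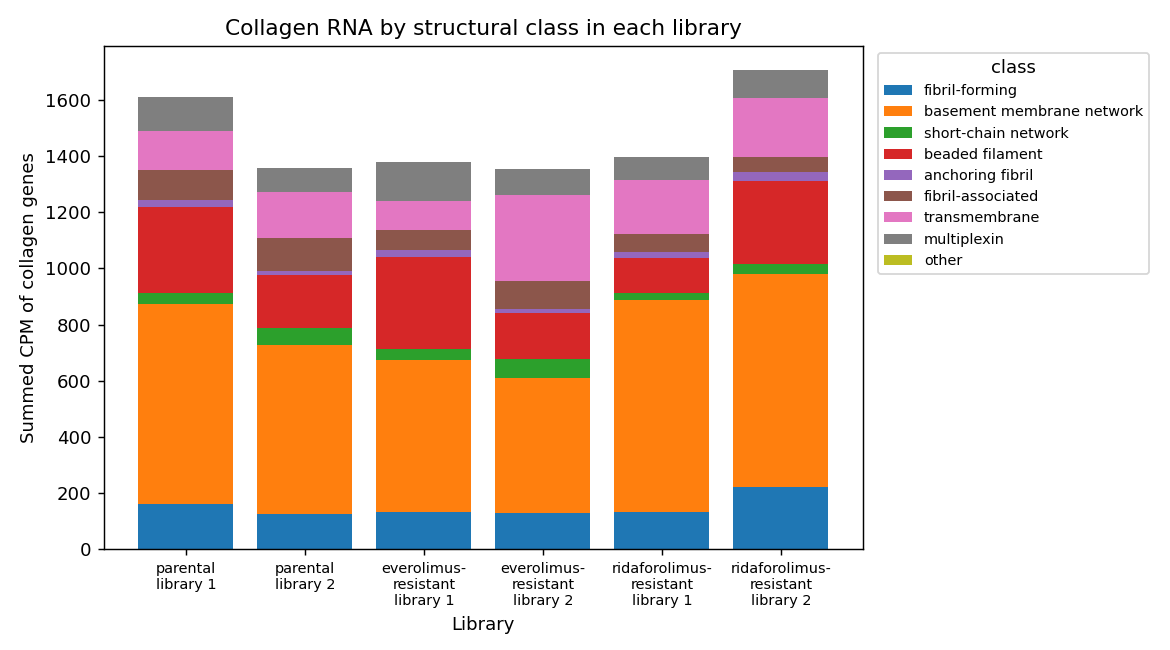
Summed CPM of collagen genes in each of the 6 libraries, as bars from 0 stacked by structural class. The basement membrane class is the largest in every library, from 480.2 to 761 CPM.

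Among the genes that process, export, crosslink, bind or break down collagen, only PXDN passed the test. Of 20 modification and folding genes 19 were tested, of 13 export and trimming genes 10, of 6 crosslinking genes 6, of 13 receptors 12, of 8 breakdown genes 3 and of 14 proteoglycans and fibril organisers 5. None was called in everolimus-resistant against parental cells. PXDN was the 1 call in the ridaforolimus-resistant line against parental cells, where 0.32% of all genes were called, and the 1 call between the resistant lines, where 0.744% were.

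PXDN encodes peroxidasin, a secreted peroxidase that makes the sulfilimine bonds between type IV collagen molecules. Its promoter is shown as that of the gene with the call: chr2:1744466-1744765, minus strand, GRCh38.p14, with its 1 match of CCAAT and 5 of GGGCGG (4 on the opposite strand, printed as CCGCCC) in capitals. The window was set on the RefSeq start (1744515). GENCODE starts PXDN further upstream, so that the whole window lies inside the gene as drawn there.
PXDN promoter: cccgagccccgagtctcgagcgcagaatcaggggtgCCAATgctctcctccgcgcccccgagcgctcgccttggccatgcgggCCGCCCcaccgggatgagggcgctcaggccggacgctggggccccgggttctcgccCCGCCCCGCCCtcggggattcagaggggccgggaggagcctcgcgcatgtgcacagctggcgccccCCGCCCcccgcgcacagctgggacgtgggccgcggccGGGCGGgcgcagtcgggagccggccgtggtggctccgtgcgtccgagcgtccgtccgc
PXDN (ENSG00000130508, chr2:1631887-1744852, GRCh38) had 298 and 304 CPM in the parental, 257 and 214 in the everolimus-resistant and 75.2 and 94.0 in the ridaforolimus-resistant libraries. The ridaforolimus-resistant libraries were the lowest by a wide margin, and no groups overlapped. The group means ± SD (n = 2) were 301 ± 3.85, 235 ± 30.4 and 84.6 ± 13.3 CPM. PXDN fell in the ridaforolimus-resistant line, with a log2 fold change of -1.83 ± 0.21 (SE; 95% interval -2.31 to -1.35; edgeR adjusted p = 0.0158) against parental cells and -1.47 ± 0.21 (SE; 95% interval -1.95 to -1.0; edgeR adjusted p = 0.0286) against the everolimus-resistant line. The everolimus-resistant line stood at -0.36 ± 0.20 (SE; 95% interval -0.82 to 0.11; edgeR adjusted p = 0.658) against parental cells.

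The calls of PXDN ended when some libraries were left out, while its fold change moved little. Against parental cells the adjusted p of edgeR's quasi-likelihood test was 0.166 and 0.214 without parental replicates 1 and 2, and 0.0561 and 0.0622 without ridaforolimus-resistant replicates 1 and 2. Between the resistant lines it was 0.0847 and 0.0866 without the parental replicates, 0.0541 without everolimus-resistant replicate 1, and 0.0793 and 0.0899 without the ridaforolimus-resistant replicates. A fit to only the 2 resistant groups gave 0.115. Over all settings tried the log2 fold change stayed between -1.99 and -1.69 against parental cells and between -1.63 and -1.32 between the lines.

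The modification genes had a median log2 fold change of -0.17 in the everolimus-resistant and 0.14 in the ridaforolimus-resistant line against parental cells. COLGALT1, which adds galactose to hydroxylysine, had 386 and 407 CPM in the parental, 298 and 312 in the everolimus-resistant and 256 and 234 in the ridaforolimus-resistant libraries. It was ordered without overlap, parental highest, at -0.69 ± 0.18 (SE; 95% interval -1.11 to -0.28; edgeR adjusted p = 0.166) in the ridaforolimus-resistant line. P4HB, a subunit of prolyl 4-hydroxylase that is also protein disulfide isomerase, had 344 and 273 CPM in the parental, 230.3 and 232 in the everolimus-resistant and 228 and 269 in the ridaforolimus-resistant libraries. CRTAP, of the complex for prolyl 3-hydroxylation, had 187 and 195 CPM in the parental, 235 and 249 in the everolimus-resistant and 230.2 and 287 in the ridaforolimus-resistant libraries. Both resistant lines were below parental cells for P4HB and above them for CRTAP without overlap. PLOD2, a lysyl hydroxylase, spread from 129 to 414 CPM, with all groups overlapping.

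The next 4 of these genes were picked with their values in view, 2 lower and 2 higher in the ridaforolimus-resistant line. At an unadjusted p under 0.05 by edgeR, 2 of the 19 tested modification genes were higher and 3 lower in that line than in parental cells. These are 26.3% of the 19, beside 14.5% of all genes. Against the everolimus-resistant line 3 were higher and 1 lower, or 21.1%, beside 14.1% of all genes. P3H2, a prolyl 3-hydroxylase that acts on type IV collagen, had 61.0 and 90.8 CPM in the parental, 89.7 and 101 in the everolimus-resistant and 39.0 and 41.9 in the ridaforolimus-resistant libraries. Its ridaforolimus-resistant values were below all others, at -0.91 ± 0.23 (SE; 95% interval -1.43 to -0.38; edgeR adjusted p = 0.152) against parental cells and -1.23 ± 0.23 (SE; 95% interval -1.76 to -0.71; edgeR adjusted p = 0.0630) between the lines. SERPINH1, the collagen chaperone HSP47, had 150.1 and 148 CPM in the parental, 114 and 97.4 in the everolimus-resistant and 97.7 and 92.7 in the ridaforolimus-resistant libraries. Both resistant lines were below parental cells without overlap, at -0.49 (95% interval -0.91 to -0.08) and -0.65 ± 0.18 (SE; 95% interval -1.06 to -0.23; edgeR adjusted p = 0.182) in the everolimus- and ridaforolimus-resistant lines.

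FKBP10, which encodes the collagen chaperone FKBP65, had 15.2 and 8.87 CPM in the parental, 10.7 and 8.53 in the everolimus-resistant and 26.8 and 44.8 in the ridaforolimus-resistant libraries. Its ridaforolimus-resistant values were above all others, at 1.57 ± 0.35 (SE; 95% interval 0.78 to 2.37; edgeR adjusted p = 0.115) against parental cells and 1.89 ± 0.35 (SE; 95% interval 1.09 to 2.7; edgeR adjusted p = 0.0630) between the lines. P4HA1, a catalytic subunit of prolyl 4-hydroxylase, had 104 and 63.9 CPM in the parental, 106 and 44.6 in the everolimus-resistant and 173 and 435 in the ridaforolimus-resistant libraries. The ridaforolimus-resistant values were again above all others but far apart, at 1.86 ± 0.52 (SE; 95% interval 0.66 to 3.06; edgeR adjusted p = 0.186) against parental cells and 2.01 ± 0.52 (SE; 95% interval 0.80 to 3.21; edgeR adjusted p = 0.144) between the lines. DESeq2, and a fit with no filter on low counts, called P3H2, FKBP10 and P4HA1 in both comparisons. These settings also called many more of all genes. Against parental cells DESeq2 called 575 and the unfiltered fit 1195, beside 68 with the filtered edgeR test. Between the lines the counts were 658 and 1362, beside 158.

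The export genes had medians of -0.14 and 0.24 in the 2 resistant lines against parental cells, and 0.24 between them. By edgeR, 3 of the 10 tested had an unadjusted p under 0.05 in the ridaforolimus-resistant line against parental cells. This is 30%, beside 14.5% of all genes. ADAMTS3 (1.71, edgeR adjusted p = 0.0814) and PCOLCE2 were higher and BMP1 lower. Between the lines ADAMTS3, PCOLCE2 (1.88, edgeR adjusted p = 0.0881) and SEC24D were higher (30%, beside 14.1%). In the everolimus-resistant line against parental cells 0 did so. MIA3, the cargo receptor that loads procollagen at the endoplasmic reticulum, had 115 and 95.1 CPM in the parental, 102 and 79.8 in the everolimus-resistant and 93.8 and 109 in the ridaforolimus-resistant libraries, with all groups overlapping. SEC24D, a coat subunit of the same vesicles, had 90.7 and 62.3 CPM in the parental, 52.4 and 48.0 in the everolimus-resistant and 63.6 and 111 in the ridaforolimus-resistant libraries. Its everolimus-resistant values were below both other groups. The estimate of SEC24D between the lines was 0.80 ± 0.30 (SE; 95% interval 0.12 to 1.48; edgeR adjusted p = 0.284). SEC23A and MIA2, of the same export step, ranged over 163 to 205 and 41.1 to 112 CPM.

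The lysyl oxidases, which start the covalent crosslinks of fibrils, had estimates in both directions, and none was called. LOXL1 had 28.5 and 33.1 CPM in the parental, 34.0 and 50.5 in the everolimus-resistant and 52.4 and 59.2 in the ridaforolimus-resistant libraries. Both resistant lines were above parental cells without overlap, at 0.46 (95% interval -0.09 to 1.00) and 0.86 ± 0.24 (SE; 95% interval 0.31 to 1.40; edgeR adjusted p = 0.178). LOX ranged from 29.02 to 196 CPM, with the lowest library in the everolimus-resistant and the highest in the ridaforolimus-resistant group. LOXL2 and LOXL4 ranged over 112 to 174 and 10.6 to 36.1 CPM.

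Receptors had a median of -0.21 in the everolimus-resistant and 0.33 in the ridaforolimus-resistant line against parental cells, and 0.52 between the lines. By edgeR's unadjusted p under 0.05, ADGRG6 and OSCAR were lower in everolimus-resistant than in parental cells (2 of 12, beside 8.79% of all genes). ADGRG1, DDR1 and MRC2 were higher in ridaforolimus-resistant than in parental cells (3 of 12, beside 14.5%). Between the lines these 3, ITGB1 and OSCAR (3.06, edgeR adjusted p = 0.0611) were higher (5 of 12, beside 14.1%). There 8 of 12 did not overlap, all higher (66.7%, beside 41.2%). The shared integrin subunit ITGB1 had 726 and 670.3 CPM in the parental, 609 and 494 in the everolimus-resistant and 714 and 813 in the ridaforolimus-resistant libraries. The everolimus-resistant values were the lowest without overlap. ITGA2 and ITGA10, which pair with it to bind collagen, ranged over 127 to 337 and 32.5 to 225 CPM. ADGRG6, an adhesion receptor that binds type IV collagen, had 129 and 161 CPM in the parental, 81.4 and 105 in the everolimus-resistant and 132 and 128 in the ridaforolimus-resistant libraries, and the everolimus-resistant line stood at -0.63 ± 0.21 (SE; 95% interval -1.12 to -0.15; edgeR adjusted p = 0.506) against parental cells.

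Of the breakdown genes 3 of 8 were tested, with medians of -0.07, 0.52 and 0.64 in the 3 comparisons. MMP14, a membrane-bound collagenase, had 417 and 339 CPM in the parental, 326 and 369 in the everolimus-resistant and 448 and 635 in the ridaforolimus-resistant libraries. The ridaforolimus-resistant libraries were above all others, at 0.52 ± 0.23 (SE; 95% interval -0.02 to 1.05; edgeR adjusted p = 0.360) against parental cells. CTSK (cathepsin K) and MMP9 (gelatinase B) ranged over 8.66 to 13.8 and 0.331 to 3.87 CPM. Among the fibril organisers FN1, fibronectin, had 1363 and 1081 CPM in the parental, 2827 and 2346 in the everolimus-resistant and 1204 and 5286 in the ridaforolimus-resistant libraries. Its replicates differed over 4-fold in the ridaforolimus-resistant group, and the estimates of 1.08 ± 0.56 (SE; 95% interval -0.19 to 2.36; edgeR adjusted p = 0.623) and 1.41 ± 0.56 (SE; 95% interval 0.12 to 2.69; edgeR adjusted p = 0.306) did not pass. THBS1, TNXB and ASPN ranged over 149.7 to 327, 19.0 to 101 and 5.81 to 10.8 CPM.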

How the data were processed

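RNA sequencing of 6 MDA-MB-231 libraries in 3 groups of 2 was analysed from raw read counts per Ensembl gene, which the authors deposited without normalisation or pooling. Per the submitters' processing notes, the build was GRCh38, and the tools, listed with no roles, were HTSeq 0.13.5, STAR 2.7.9a, Trim Galore 0.6.6 and DESeq2. Not given in the sources used here are the annotation release and the counting's strand setting, so reads of genes that overlap on opposite strands may have been shared or dropped. GENCODE 29 gave positions and merged exon lengths, and RefSeq (GRCh38.p14) gave promoter windows.

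Counts were scaled by TMM and tested with edgeR 4.0.16 (filterByExpr, glmQLFit and glmQLFTest, R 4.3.3) on the 6 libraries (residual degrees of freedom: 3). The tests were two-sided, with p-values adjusted by the Benjamini-Hochberg method over 21223 genes with a threshold of 0.05. Fold changes are given with SE and 95% intervals derived from the same fit. The SE was the absolute log2 fold change over the square root of the test's F statistic. The intervals used the t distribution with the test's total degrees of freedom, which add prior ones shared across genes to the residual ones. CPM are counts per 1000000 of the TMM-scaled library size. Intervals of ratios of counts cover counting error only. The procedure was tested on simulated data with fold changes larger than those of most collagen genes here. That test therefore does not show how well differences of their size are found.

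Members, gene lists and tests were chosen with earlier results of these data known. Every described collagen with a mean of at least 1 CPM is given by library, or as a range for COL5A2, COL8A2, COL20A1 and COL24A1. Of each of 6 pathway lists the called genes and up to 4 others of highest mean CPM are given. Further pathway genes were named after their values were seen. Alternatives were DESeq2 1.42.0, limma-voom 3.58.1, other scalings and filters, fits to the compared groups alone, a replicate block and leaving out each library.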

Additional observations from a re-analysis of the deposited data

Results flagged for a closer look

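Of the 104 listed genes that were tested, 4 differed between the 2 resistant lines in the direct comparison by edgeR's quasi-likelihood test, where 0.744% of all genes did, and none of the 4 was a collagen. The log2 fold changes are ridaforolimus-resistant over everolimus-resistant. PXDN, the peroxidasin described above, stood at -1.47 (adjusted p = 0.0286).

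MSN, moesin, a linker of membrane and actin on the tumour cell marker list, stood at 1.68 (adjusted p = 0.0403), with 362 and 589 CPM in the everolimus-resistant and 1436 and 1616 CPM in the ridaforolimus-resistant libraries. Without everolimus-resistant replicate 2 the call held, and without any other library it was lost (MSN estimates 1.36 to 2.08). It was also lost in a fit to only the 2 groups (adjusted p = 0.123) and with the replicate block (0.0801).

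FBLN1, fibulin-1, a matrix protein on the fibroblast list, stood at -2.31 (adjusted p = 0.0403), with 18.0 and 22.9 CPM in the everolimus-resistant and 5.11 and 3.14 CPM in the ridaforolimus-resistant libraries. Without everolimus-resistant replicate 1 the call held, and without any other library it was lost (FBLN1 estimates -2.70 to -1.99). It was also lost with a filter at 5 CPM (adjusted p = 0.0568), in a fit to only the 2 groups (0.106) and with the replicate block (0.0877).

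GATA3, a transcription factor of luminal breast cells, stood at -2.38 (adjusted p = 0.0403), with 3.91 and 5.88 CPM in the everolimus-resistant and 0.915 and 0.950 CPM in the ridaforolimus-resistant libraries. Here too the call held without everolimus-resistant replicate 1 and was lost without any other library (GATA3 estimates -2.66 to -2.06). It was also lost with limma-voom (adjusted p = 0.0676), in a fit to only the 2 groups (0.1301) and with the replicate block (0.0775).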

How the results depend on the processing

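The count of called collagen genes was 0 in everolimus-resistant against parental cells under every alternative tried. In ridaforolimus-resistant against parental cells it became 1 with DESeq2 (COL12A1) and 2 with no filter on low counts (COL12A1 and COL8A1), and between the resistant lines 1 with no filter on low counts (COL8A1). Leaving out any library gave 0 to 0 in all 3 comparisons. Of 1173 collagen fold changes recomputed, 1107 kept direction and side of the threshold, 5 crossed it, and 61 uncalled ones changed sign.

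Calls over all genes moved widely. In everolimus-resistant against parental cells, where the count was 1, DESeq2 gave 147, no filter 493, and total-count scaling, the 2 groups alone or a filter at 5 CPM 0, with 0 to 3 without a library. In ridaforolimus-resistant against parental cells, where it was 68, DESeq2 gave 575, no filter 1195, and the 2 groups alone 127, with 1 to 276 without a library: 1 without either parental replicate, 2 without ridaforolimus-resistant replicate 2, and 276 and 236 without everolimus-resistant replicates 1 and 2. Between the resistant lines, where it was 158, DESeq2 gave 658, no filter 1362, the 2 groups alone 0, and a filter at 5 CPM 81, with 19 to 123 without a library. The cause was not tested.

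The replicate numbers of the labels did not pair all 3 groups in the same direction. Over 21223 genes, differences of replicate 1 and 2 correlated at 0.33 between the parental and everolimus-resistant groups. They correlated at -0.17 between the parental and ridaforolimus-resistant groups and at -0.19 between the resistant groups. The main fit had no term for a difference shared by replicates, and the source of these correlations was not tested. With the replicate block, 0 collagens were called in each comparison, all genes gave 0, 28 and 49 calls, and PXDN had adjusted p-values of 0.0580 against parental cells and 0.0742 between the lines. With the ridaforolimus-resistant numbers crossed, added after seeing the data, the replicate block gave 0, 1 and 0 collagen calls and 150, 814 and 1044 over all genes.

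Depth limits the low genes: 20 of the 28 described collagens reached 50 counts in 2 libraries.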
